A study of Homo sapiens with 132 samples.

Results

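Collagen chain genes encode the alpha chains from which collagens, the main structural proteins of the extracellular matrix, are built. The 44 genes described here are all protein-coding genes in the count files whose symbol is COL, a number, the letter A and a number, out of 65217 listed identifiers, of which 19674 are protein-coding in the GENCODE 29 annotation. By class they are 11 fibrillar chains, 6 chains of the basement membrane network (type IV), 5 beaded filament chains (type VI), 1 anchoring fibril chain (type VII), 10 FACIT chains, which decorate fibrils, 4 transmembrane chains, 3 short chain network genes, 2 multiplexins and 2 others. They lie on 17 chromosomes.

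Alpha chains are made in the endoplasmic reticulum, hydroxylated on proline and lysine, wound into a helix of chains and secreted. Fibrillar collagens form the cables of connective tissue and are made mainly by fibroblasts, whereas type IV collagen forms the sheet under epithelia and type VII anchors that sheet to the tissue below. Transmembrane collagens such as types XIII and XVII stay in the plasma membrane of the cell that makes them and take part in adhesion. Integrins and discoidin domain receptors bind collagen at the cell surface, and matrix metalloproteinases cut it.

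Cells of 4 gastric cancer lines (Hs746T, MKN1, MKN7 and NCI-N87) were treated with ligands or inhibitors of the receptors EGFR and HER2 for 4 h or 24 h, and polyA RNA was sequenced in 3 biological replicates per condition, giving 44 groups. MKN1 and Hs746T cells were left untreated or received EGF (5 ng/ml), EGF with the EGFR antibody cetuximab (Cet, 1 µg/ml), cetuximab alone, the HER2 antibody trastuzumab (Tra, 5 µg/ml), the kinase inhibitor afatinib (Afa, 0.5 µM), or trastuzumab with afatinib. For NCI-N87 and MKN7 there were untreated, trastuzumab, afatinib and combination groups. Each line is 1 line, Hs746T was grown in DMEM and the others in RPMI, so line and medium cannot be told apart for Hs746T, and afatinib was compared with untreated cells, not with its solvent.

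The libraries held 25832557 to 69434151 counts (median 50725776), and 3 counts, the floor used here, equal 0.0432 to 0.116 CPM, the count scaled to a common library total. Epithelial markers were present in all 4 lines: 7 of 7 had a median of at least 1 CPM in MKN1, MKN7 and NCI-N87 and 5 of 7 in Hs746T, where CDH1 was at 0.785 CPM and VIM at 1595 CPM. MKN1 was mixed as well, with medians of 2 CPM for CDH1, 1.87 for ESRP1 and 559 for VIM, but 11066 for the keratin KRT8. In MKN7 and NCI-N87, CDH1 was at 243 and 256 CPM, ESRP1 at 162 and 397, VIM at 3.74 and 4.17 and KRT8 at 3083 and 9662. Fibroblast markers were few, with 2 of 6 at a median of at least 1 CPM in MKN1, 1 in Hs746T and 0 in MKN7 and NCI-N87.

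The way the counts were made limits some members. Of 1418 protein-coding genes whose span lies wholly inside the span of another gene, 94.9% were at 0 counts in every library, against 3.42% of the other 18256, and the share was 94.5% for the 971 that lie only inside genes of the opposite strand. COL10A1, which lies inside NT5DC1, was at 0 in every library, and its expression cannot be read from these files. COL4A3 has 97.3% of its exonic bases inside another gene, COL18A1 55%, COL16A1 21.4% and COL4A2 16.6%, while 33 of the 44 members have none. The fibroblast marker THY1 is also wholly covered and at 0. Levels per kilobase are therefore given over the exonic bases outside every other gene, and not for COL10A1 and COL4A3.

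Some low members of NCI-N87, COL5A1 in MKN7 and the sum over members in MKN1 were highest in replicate 1. In NCI-N87, COL5A1 lay at 5.71 to 14.4 CPM in replicate 1, 1.11 to 2.43 in replicate 2 and 0.618 to 1.25 in replicate 3 over the 8 conditions, and COL6A1 and COL6A2 were also highest in replicate 1 in 8 of 8. COL5A1 in MKN7 was 4.34 to 7.77 CPM in replicate 1 and at most 4.21 CPM in the others. In MKN1 the CPM summed over all members were highest in replicate 1 in every condition. Untreated, replicates 1 to 3 summed to 6468, 4698 and 4861 CPM at 4 h and 4461, 3194 and 3740 CPM at 24 h. What lies behind this was not tested.

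Sequence just upstream of the RefSeq start of members that carry the treatment results below is shown here, from RefSeq on GRCh38.p14, 5′ to 3′ on the strand of the named gene. Capitals mark exact matches on either strand. The searched letters were CCAAT, which NF-Y binds. A GC box was searched as GGGCGG. The TATA box was searched as TATAAA. The AP-1 site, searched as TGANTCA, had no match in these stretches. COL4A1 and COL4A2, whose chains assemble with each other, start head to head at chr13:110307158-110307283, so the stretch between them, shown on the plus strand, is the whole gap. COL4A5 is shown at chrX:108439588-108439837 on the plus strand, COL13A1 at chr10:69801656-69801905 on the plus strand and COL16A1 at chr1:31704018-31704267 on the minus strand.
COL4A1 to COL4A2: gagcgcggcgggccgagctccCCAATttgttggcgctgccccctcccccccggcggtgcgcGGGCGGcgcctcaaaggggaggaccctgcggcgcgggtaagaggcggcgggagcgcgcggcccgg
COL4A5: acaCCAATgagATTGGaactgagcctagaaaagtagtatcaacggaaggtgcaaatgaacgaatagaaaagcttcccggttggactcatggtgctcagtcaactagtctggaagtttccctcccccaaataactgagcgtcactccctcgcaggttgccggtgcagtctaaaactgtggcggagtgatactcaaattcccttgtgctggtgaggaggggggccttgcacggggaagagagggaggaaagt
COL13A1: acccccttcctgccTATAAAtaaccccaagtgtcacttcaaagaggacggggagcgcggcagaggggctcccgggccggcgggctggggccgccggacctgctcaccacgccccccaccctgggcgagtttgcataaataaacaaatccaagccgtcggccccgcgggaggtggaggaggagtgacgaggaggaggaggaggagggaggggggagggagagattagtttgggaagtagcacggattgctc
COL16A1: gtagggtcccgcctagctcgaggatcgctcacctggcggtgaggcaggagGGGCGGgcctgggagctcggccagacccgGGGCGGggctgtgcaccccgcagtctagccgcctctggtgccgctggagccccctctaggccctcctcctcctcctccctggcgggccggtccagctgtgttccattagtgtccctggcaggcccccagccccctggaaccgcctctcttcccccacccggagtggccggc

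Among all 35116 RefSeq windows of 250 upstream bases, CCAAT or its reverse complement occurred in 32%, GGGCGG in 42.6%, TGANTCA in 6.57% and TATAAA in 10.7%. The 32 members in the table have 44 such windows, of which 27.3%, 54.5%, 2.27% and 18.2% held these letters. For windows as long as the stretch between COL4A1 and COL4A2 the shares over all genes were 21.1%, 34.6%, 3.5% and 5.87%. COL4A5 and COL4A6 also start head to head, 379 bases apart, as do COL4A3 and COL4A4, 418 bases apart. A match is only a run of letters.

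Untreated cells of the 4 lines differed widely in which collagen chains they expressed. Untreated MKN1 cells held the most, with 15 members at 10 CPM or more, MKN7 and Hs746T had 12 each, and NCI-N87 had 7. All members together summed at 24 h to 3798 ± 635 CPM (SD, n = 3) in untreated MKN1 cells, 2138 ± 137.3 in MKN7, 1671 ± 82.3 in Hs746T and 150 ± 36.8 in NCI-N87. MKN1 was higher still at 4 h, at 5342 ± 978 CPM. In bulk RNA, fewer cells that express a gene and less RNA per cell cannot be told apart.

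Per kilobase, type VI and type V chains led in MKN1. Over the 6 untreated libraries, COL6A1 reached 123.8 to 299 CPM per kilobase, COL5A1 98.3 to 208 and COL6A2 70.7 to 151, so these neighbours overlapped, and COL7A1 followed at 35.7 to 59.8. COL6A1 and COL6A2 encode chains that assemble into type VI filaments, and COL5A1 a chain that nucleates fibrils. In MKN7, COL6A1 (84 to 126.8 CPM per kilobase) overlapped COL12A1 (51.2 to 94.1), a FACIT chain that links fibrils, and both were above COL7A1 (10.2 to 19.3). The NCI-N87 libraries held little collagen RNA, led by COL18A1, the source of endostatin, at 6.26 to 7.65 CPM per kilobase, then by COL17A1, a hemidesmosome protein, at 1.23 to 2.69, and COL1A1 at 1.26 to 1.84, which overlapped. Hs746T was led by COL1A1 at 49.5 to 70.9 CPM per kilobase, above COL6A1 at 28.8 to 38.8 and COL6A2 at 25.6 to 42.7, which overlapped each other.

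**Figure D1:**
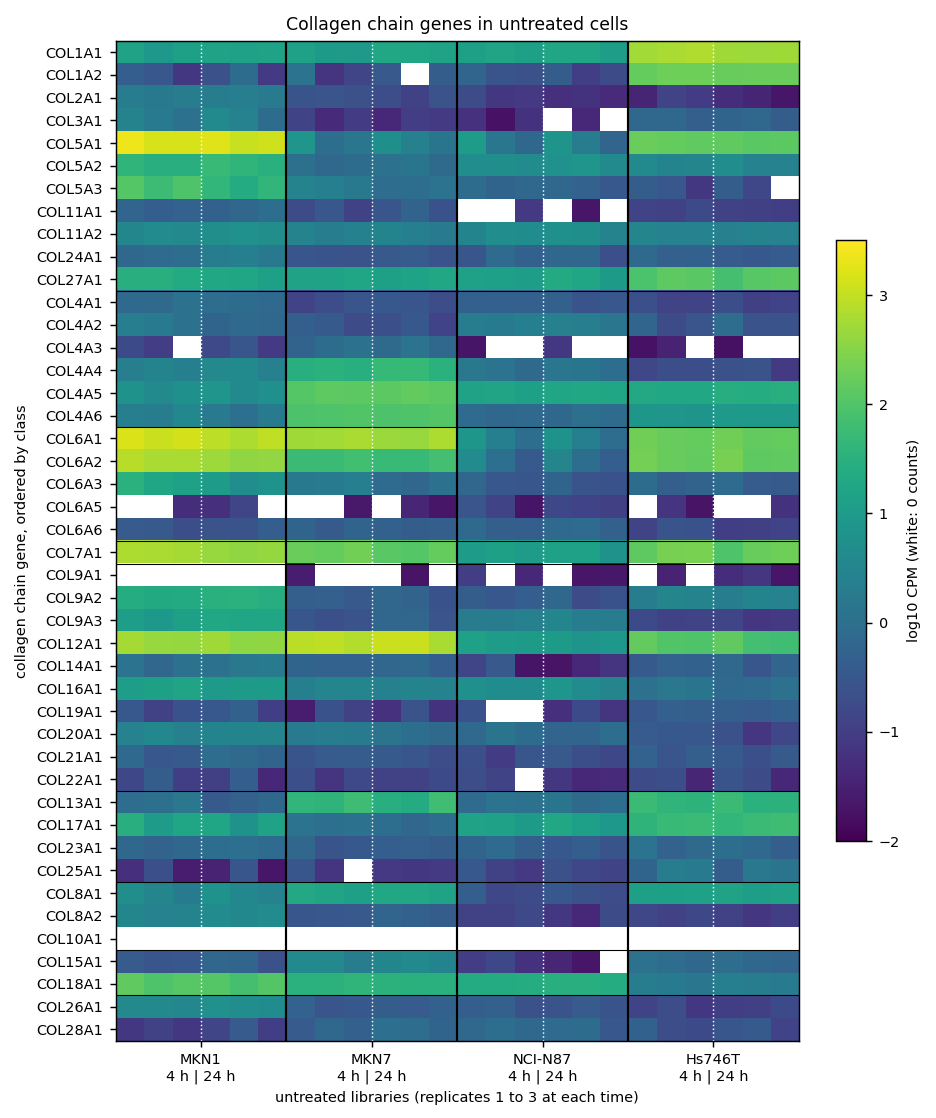
Log10 CPM of the 44 collagen chain genes (rows, ordered by class, with lines between classes) in each untreated library (columns, replicates 1 to 3 at 4 h and 24 h for each line); white cells hold 0 counts. MKN1 is bright for COL5A1, COL6A1 and COL6A2, Hs746T for COL1A1 and COL1A2, MKN7 for COL12A1 and COL4A4 to COL4A6, and COL10A1 is white throughout.

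The chains of type I collagen, the main collagen of connective tissue, separated Hs746T from the other lines. COL1A1 had a lowest, median and highest value of 486, 534 and 696 CPM in untreated Hs746T, against medians of 14.4 CPM for MKN1, 14.5 for MKN7 and 14.6 for NCI-N87. COL1A2 ran from 158 to 193 CPM (median 174) in Hs746T, and no untreated library of another line exceeded 1.22 CPM. In the edgeR fit of all libraries, the COL1A2 difference MKN1 minus Hs746T was -8.99 on the log2 scale (SE 0.40, adjusted p = 1.30e-38), and COL1A1 differed by -5.40 (SE 0.13, adjusted p = 8.44e-61). COL1A1 did not pass the test between any pair of the other 3 lines.

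MKN1 stood apart in type V collagen. COL5A1 had a lowest, median and highest value of 1100, 1478 and 2330 CPM in untreated MKN1 and of 122.9, 145.5 and 177.4 CPM in Hs746T, a difference of 3.40 (log2, SE 0.47, adjusted p = 3.56e-10). In MKN7 and NCI-N87 its medians were 1.97 and 1.74 CPM. COL5A2 had a median of 34.9 CPM and COL5A3 of 51.9 CPM in MKN1, and at most 5.18 CPM for either gene in the other lines. COL5A3 was past both thresholds in all 6 pairs of lines, as were COL11A1, COL15A1, COL4A4, COL4A6, COL6A2 and COL9A3, and COL11A2 and COL23A1 were past them in none. Some of these levels were low. COL11A1 was at most 0.988 CPM in any untreated library, COL15A1 had a mean of 0.0626 CPM in untreated NCI-N87, and COL5A3 ran from 0 to 0.429 CPM in untreated Hs746T. The share of all genes past the thresholds in all 6 pairs was not computed, so the pattern is not read as particular to collagen.

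MKN7 carried COL4A4, COL4A5 and COL4A6, chains of the type IV network that are found in kidney and skin basement membranes. The level of COL4A3, mostly covered by another gene, cannot be judged here. COL4A5 ran from 111.4 to 152.7 CPM (median 129.9) and COL4A6 from 91 to 106.5 CPM (median 96.1) in untreated MKN7, and COL4A4 from 28.2 to 48 CPM. The highest medians elsewhere were 23 CPM for COL4A5 and 8.58 CPM for COL4A6, both in Hs746T, and 2.74 CPM for COL4A4, in MKN1. COL4A6 was higher in MKN7 than in Hs746T by 3.55 (log2, SE 0.14, adjusted p = 1.48e-42). The common type IV chains were low in every line, with medians of at most 0.846 CPM for COL4A1 and 2.16 CPM for COL4A2.

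The transmembrane collagen COL13A1 was expressed in MKN7 and Hs746T. Its lowest, median and highest untreated values were 24.8, 40 and 66.4 CPM in MKN7 and 32, 37.8 and 57.5 CPM in Hs746T, and these lines did not differ past the thresholds (0.03, SE 0.20, adjusted p = 0.921). Medians in MKN1 and NCI-N87 were 0.797 and 1.08 CPM. COL17A1 had a median of 54.4 CPM in Hs746T, 15.8 in MKN1, 13.5 in NCI-N87 and 1 in MKN7.

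The remaining classes were less even. COL7A1 had untreated medians of 518 CPM in MKN1, 179 in Hs746T, 159 in MKN7 and 12 in NCI-N87, and COL12A1 of 439, 99.4, 879 and 9.94 CPM in the same order. COL27A1, a fibrillar chain of cartilage, had a median of 120.8 CPM in Hs746T and of 13.5 to 20.8 CPM elsewhere. COL9A2 and COL9A3, chains of the cartilage FACIT collagen IX, had medians of 26.2 and 15.1 CPM in MKN1 and at most 2.81 CPM elsewhere. COL8A1 had medians of 17.6 CPM in MKN7, 13.8 in Hs746T, 3.43 in MKN1 and 0.215 in NCI-N87. COL18A1, partly covered by other genes, had medians of 1.95 CPM in Hs746T, 25.2 in NCI-N87 and 32.7 in MKN7, and was highest in MKN1, at 75.2 CPM or more. COL2A1, COL3A1, COL4A3, COL11A1, COL11A2, COL24A1, COL6A6, COL14A1, COL16A1, COL20A1, COL21A1, COL23A1, COL25A1, COL8A2, COL15A1, COL26A1, COL28A1 and COL6A3 had untreated medians from 0 to 12 CPM in the 4 lines. For COL4A3 this does not show a low level, since 97.3% of its exonic bases lie inside another gene. COL6A5, COL9A1, COL10A1, COL19A1 and COL22A1 stayed below 1 CPM in the mean of every group.

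Between untreated lines a gene was called when its Benjamini-Hochberg adjusted p was under 0.05 and its log2 fold change (log2FC) was above 1 or below -1. Of 42 members in that fit, 30 were called between MKN1 and MKN7 (71.4%; 41.4% of all genes tested), 32 between MKN1 and NCI-N87 (76.2%; 45.9%) and 34 between MKN1 and Hs746T (81%; 47.8%). The counts were 22 between MKN7 and NCI-N87 (52.4%; 44.4%), 30 between MKN7 and Hs746T (71.4%; 45.9%) and 31 between NCI-N87 and Hs746T (73.8%; 49.1%). MKN1 was the higher line for 22, 29 and 24 of its called members in those pairs, where 22.7%, 24.3% and 25.5% of all genes were called higher in MKN1.

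EGF, the ligand of EGFR, raised some collagen chains and lowered others in MKN1 cells at 24 h. Of 41 members tested, 7 were called (17.1%), against 8.36% of all genes tested: the transmembrane chain COL13A1, the type VI chain COL6A3 and the type IV pair COL4A1 and COL4A2 rose, and the fibrillar chains COL3A1 and COL5A2 and the FACIT chain COL21A1 fell. Upward calls took 2.11% and downward calls 6.24% of all genes, and the median log2FC was -0.28 over members and -0.05 over all genes. Scaling by library size alone, which moved the median log2FC of all genes by -0.20, gave 4 higher and 7 lower members in place of 4 and 3. By class, 2 of 11 fibrillar chains fell and 0 rose, and 2 of 6 type IV chains rose and 0 fell.

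COL13A1 was at 0.361, 0.482 and 0.687 CPM in untreated MKN1 cells at 24 h and at 2.99, 3.58 and 3.38 CPM after EGF. The groups did not overlap, and the log2FC was 2.73 (SE 0.33, adjusted p = 1.24e-07). COL6A3, the chain that completes type VI collagen, went from 10.4, 4.88 and 6.38 CPM to 53.3, 30.7 and 33.9 CPM (2.46, SE 0.53, adjusted p = 4.38e-04).

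COL4A1 was at 0.902, 0.884 and 0.773 CPM untreated and 1.7, 2.07 and 2.4 CPM with EGF (1.29, SE 0.21, adjusted p = 1.54e-05). Its head to head neighbour COL4A2 was at 0.595, 0.744 and 0.687 CPM and then at 1.62, 2.68 and 1.73 CPM (1.59, SE 0.32, adjusted p = 2.08e-04). Both pairs of groups were apart, and both genes stayed low.

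COL5A2, a fibril chain that assembles with COL5A1, fell from 54.4, 38.8 and 31 CPM to 16.5, 11.9 and 14.6 CPM (log2FC -1.51, SE 0.20, adjusted p = 3.42e-07). COL3A1, the chain of type III collagen, was at 4.24, 2.73 and 0.881 CPM and then at 0.622, 0.564 and 0.5 CPM (-2.21, SE 0.62, adjusted p = 5.72e-03). Its groups did not overlap, but it was no longer called without replicate 2 (-2.18). COL21A1 was below 1 CPM in both groups (-1.24, SE 0.45, adjusted p = 0.0324), and its call was lost without replicate 1 or 2.

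Several abundant chains passed the adjusted p with changes under 2-fold. COL12A1 went from 524, 368 and 393 CPM to 317, 204 and 265 CPM (-0.69), and COL9A3 from 18.5, 16.9 and 16.9 CPM to 9.44, 6.54 and 9.88 CPM (-1.0), which was called with the replicate number as a block (-1.01). COL6A1 was higher by 0.52 and COL1A1 lower by 0.49 on the log2 scale. The EGF result had markers moving with it: the summed fibroblast markers, nearly all LUM, were 74.5 to 163 CPM untreated and 28.5 to 32.8 CPM after EGF in MKN1, while the medians of DCN, PDGFRA and POSTN were at most 0.158 CPM. Summed mesenchymal markers were 1832 to 2187 CPM and 2454 to 3220 CPM. Their part in the result was not tested.

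**Figure D2:**
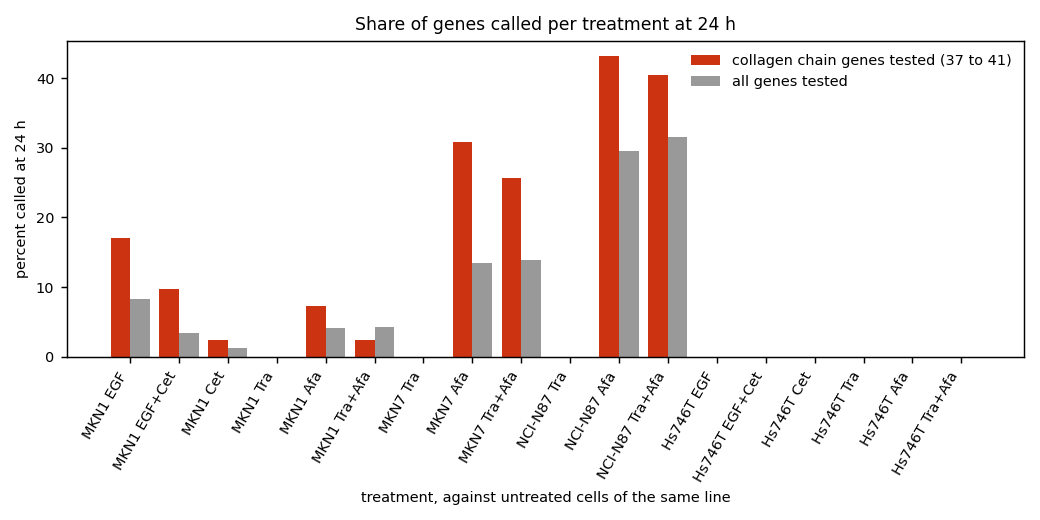
Percent of the collagen chain genes tested (red bars, 37 to 41 per line) and of all genes tested (grey bars) called at 24 h for each treatment against untreated cells of the same line. Red stands above grey for EGF in MKN1 (17.1% and 8.36%) and for afatinib in MKN7 (30.8% and 13.5%) and NCI-N87 (43.2% and 29.6%), and all Hs746T and trastuzumab bars are at 0.

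Cetuximab added to EGF in MKN1 brought part of these values back. Against EGF alone at 24 h, 2 of 41 members were called (4.88%; 0.156% of all genes), and both fell: COL4A1 returned to 0.841, 0.96 and 0.72 CPM (-1.30, SE 0.21, adjusted p = 8.27e-04) and COL13A1 to 1.32, 1.23 and 1.59 CPM (-1.28, SE 0.30, adjusted p = 0.0324). COL6A3 at 25, 14.3 and 15.2 CPM was not called (-1.12, adjusted p = 0.423) but was with the replicate number as a block (-1.14, adjusted p = 1.11e-06). Leaving out any 1 replicate left 0 or 1 of these calls.

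Against untreated cells, EGF with cetuximab still left 4 of 41 members called (9.76%; 3.38%). COL13A1 was higher (1.45, SE 0.35, adjusted p = 2.98e-03), and COL5A2 lower at 22.5, 17.9 and 19.4 CPM (-1.05, SE 0.19, adjusted p = 2.26e-04), while COL3A1 at 0.895, 1.02 and 0.381 CPM (-1.76, SE 0.59, adjusted p = 0.0341) and COL21A1 (-1.80) were the other two. The COL3A1 groups overlapped, and its call was lost without replicate 1 (-1.35) or 2 (-1.98). Without replicate 1, COL5A2 (-0.90) and COL13A1 (1.28) were not called either. The replicate block added COL6A3 (1.36, adjusted p = 2.92e-08) and COL14A1 (adjusted p = 9.78e-06). This comparison and those of EGF, cetuximab and afatinib share the untreated libraries.

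Cetuximab alone and afatinib each raised 1 of 11 fibrillar chains in MKN1, COL3A1, which EGF lowered. It was at 12.3, 7.86 and 5.54 CPM with cetuximab (1.68, SE 0.52, adjusted p = 0.0316), 12.9, 7.23 and 4.45 CPM with afatinib (1.62, SE 0.52, adjusted p = 0.0193) and 11.1, 6.49 and 4.91 CPM with trastuzumab and afatinib (1.48, SE 0.52, adjusted p = 0.0307). All of these values lay above the untreated ones. The call was lost without replicate 2 after cetuximab (1.79), afatinib (1.74) and the combination (1.63), and without replicate 3 after cetuximab (1.5) and the combination (1.3).

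COL5A2, which EGF lowered, was at 83, 63.6 and 75.6 CPM with cetuximab and 84.9, 63 and 73.8 CPM with afatinib, an afatinib log2FC of 0.82 (SE 0.19, adjusted p = 1.56e-03) that is under 2-fold. COL4A5, an X-linked chain of the type IV network, rose with afatinib to 13.1, 8.18 and 16 CPM from 7.52, 4.2 and 5.78 CPM (1.07, SE 0.26, adjusted p = 2.45e-03), though not past 2-fold without replicate 3 (0.85). COL4A2 fell to 0.234, 0.417 and 0.163 CPM with afatinib (-1.32, SE 0.39, adjusted p = 0.0124).

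In counts, cetuximab called 1 of 41 members in MKN1 (2.44%; 1.33% of all genes), afatinib 3 (7.32%; 4.19%) and the combination 1 (2.44%; 4.24%), shares near those of all genes. With the replicate block cetuximab called 2, adding COL4A2 (-1.04 without and adjusted p = 4.67e-03 with the block), and the combination 2, adding COL19A1. The summed fibroblast markers stood at 309 to 316 CPM after afatinib, above the untreated 74.5 to 163 CPM, and their part was not tested.

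**Figure D3:**
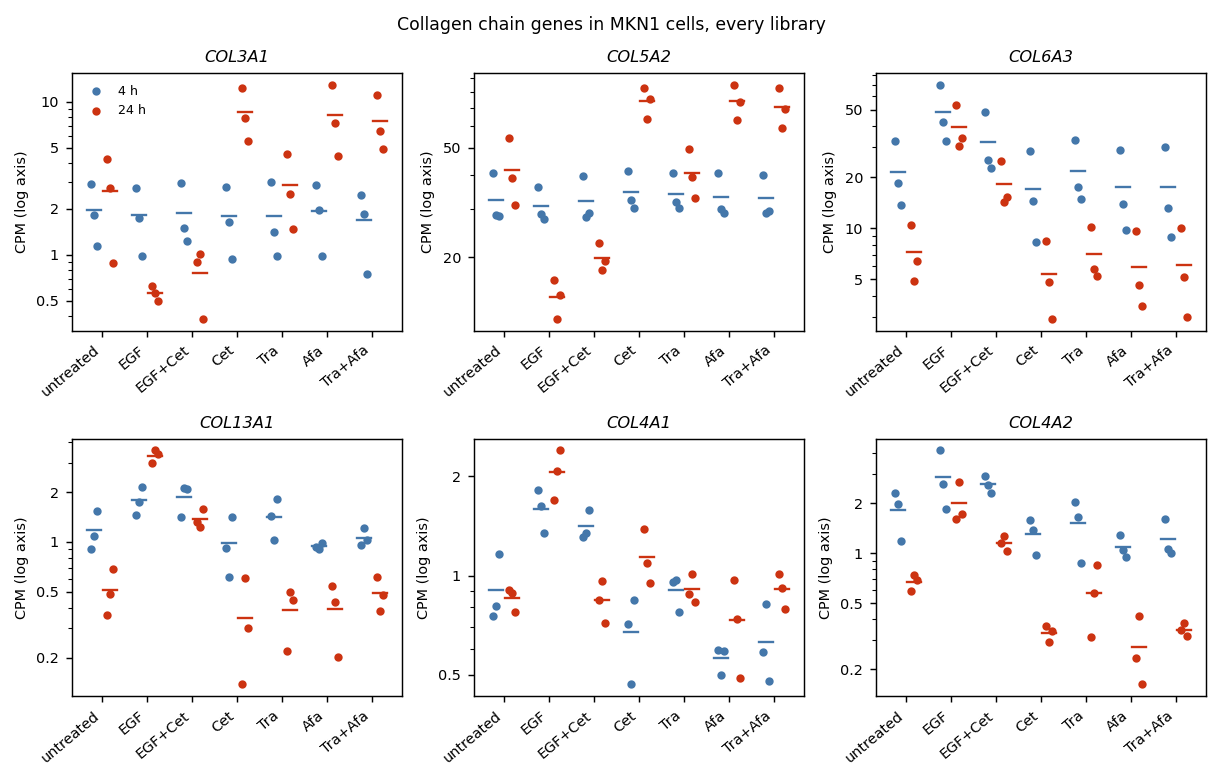
CPM on a log axis of COL3A1, COL5A2, COL6A3, COL13A1, COL4A1 and COL4A2 in MKN1 for the 7 conditions, with 1 dot per library (blue 4 h, red 24 h) and a bar at each mean (n = 3). At 24 h the EGF dots of COL13A1 sit at 2.99 to 3.58 above the untreated 0.361 to 0.687, and those of COL5A2 at 11.9 to 16.5 below the untreated 31 to 54.4.

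In MKN7 cells at 24 h, afatinib gave 12 calls among 39 members (30.8%; 13.5% of all genes tested), 8 higher (10.3% of all genes) and 4 lower (3.25%). The transmembrane chains COL13A1 and COL17A1, the short chain network gene COL8A1 and COL6A3 fell, and 5 of 9 FACIT chains, the fibrillar chains COL11A2 and COL24A1 and COL28A1 rose. The median log2FC was 0.58 over members and 0.04 over all genes. Library size alone, a shift of 0.11 in the median of all genes, gave 11 higher and 3 lower.

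COL13A1 in MKN7 was at 28.9, 24.8 and 66.4 CPM untreated, 17, 16.9 and 43.6 CPM with trastuzumab, 2.51, 2.9 and 2.74 CPM with afatinib and 2.13, 2.97 and 2.35 CPM with both. All values with afatinib, alone or combined, lay below those without it, and the log2FC was -3.89 for afatinib (SE 0.38, adjusted p = 6.11e-08) and -4.01 for both drugs. COL8A1, a chain of vessel wall and cornea networks, fell from 18.9, 19.8 and 15.1 CPM to 3.76, 3.31 and 2.92 CPM (-2.44, SE 0.23, adjusted p = 3.78e-08). Trastuzumab alone left COL8A1 at 13.9, 14.7 and 13.6 CPM.

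Among the FACIT chains of MKN7, COL16A1 rose from 2.63, 2.96 and 2.91 CPM to 7.92, 6.85 and 5.83 CPM with afatinib (1.27, SE 0.17, adjusted p = 4.07e-06). COL9A2 went from 0.662, 0.569 and 0.239 CPM to 1.78, 1.36 and 2.04 CPM (1.79, SE 0.31, adjusted p = 5.52e-05), and COL20A1 from 1.3, 0.962 and 0.803 CPM to 2.38, 2.52 and 2.68 CPM (1.29, SE 0.28, adjusted p = 5.21e-04). The groups did not overlap in any of these 3 genes. COL21A1 and COL22A1 were called below 1 CPM, and both calls were lost without replicate 2, that of COL22A1 also without replicate 1.

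COL28A1, a chain of peripheral nerve, rose in MKN7 from 1.02, 0.923 and 0.586 CPM to 3.11, 3.54 and 2.26 CPM with afatinib (1.80, SE 0.21, adjusted p = 6.48e-07). COL11A2, which regulates fibril width in cartilage, went from 2.99, 2.41 and 1.97 CPM to 5.86, 4.61 and 4.85 CPM (1.04, SE 0.22, adjusted p = 5.64e-04), and was under 2-fold without replicate 3 (0.93). COL24A1, COL6A3 and COL17A1 were called with means below 1 CPM in both groups, and without replicate 3 COL24A1 and COL17A1 were not.

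The abundant chains of MKN7 changed by less than 2-fold but past the adjusted p. COL12A1 stood at 1175, 1156 and 639 CPM untreated and 2149, 1971 and 1483 CPM with afatinib (0.91, SE 0.22, adjusted p = 1.76e-03), and COL7A1 at 120.9, 112.7 and 159.3 CPM and then 227.6, 204.7 and 291.1 CPM (0.87, SE 0.17, adjusted p = 1.91e-04). COL4A5 went from 128.5, 152.7 and 128.3 CPM to 228.5, 252.1 and 262 CPM (0.85, SE 0.08, adjusted p = 8.23e-08), and COL4A4 was higher by 0.98 and COL4A6 by 0.58. COL6A1 was lower, at 333, 333 and 373 CPM against 475, 449 and 677 CPM (-0.63), and so was COL6A2 (-0.65). The sum over members was 3109 ± 274.6 CPM with afatinib and 2138 ± 137.3 untreated (SD, n = 3).

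The combination with trastuzumab gave 10 of 39 calls in MKN7 (25.6%; 13.9%) and, against trastuzumab alone, 9 (23.1%; 9.7%). Summed epithelial markers in MKN7 were 4620 to 5459 CPM with afatinib and 6290 to 7365 CPM untreated. Summed mesenchymal markers were 930.4, 971.2 and 717.8 CPM with afatinib and 667, 744.8 and 487 CPM untreated, higher in every replicate but overlapping, and summed fibroblast markers 1.72 to 3.03 CPM and 0.477 to 1.1 CPM. The epithelial and mesenchymal sums were mostly keratins and FN1. Over all MKN7 libraries KRT8, KRT18 and KRT19 had medians of 3083, 853.6 and 1142 CPM, and the other epithelial markers at most 625.7 CPM. The FN1 median was 623.6 CPM, and the other mesenchymal markers had at most 143.3 CPM. The part of these markers in the collagen changes was not tested.

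In NCI-N87, 16 of 37 members were called after 24 h of afatinib (43.2%; 29.6% of all genes tested), 14 higher (18.1% of all genes) and 2 lower (11.5%), with a median log2FC of 0.82 over members and 0.03 over all genes. By class, 5 of 9 fibrillar chains, 3 of 5 type IV chains, 3 of 8 FACIT chains, 2 of 4 transmembrane chains and the anchoring fibril chain COL7A1 rose. COL13A1 and COL8A1 fell, as in MKN7. The sum over members was 271 ± 37 CPM against 150 ± 36.8 CPM untreated (SD, n = 3).

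COL4A5 in NCI-N87 was at 17.8, 19.1 and 17.7 CPM untreated, 20, 20.8 and 17.7 CPM with trastuzumab, 48, 48 and 44.8 CPM with afatinib and 48.7, 46.9 and 50.4 CPM with both. The afatinib groups lay far above the others (1.33, SE 0.13, adjusted p = 1.78e-08). COL4A4 went from 1.44, 1.39 and 0.95 CPM to 4.04, 2.97 and 3.15 CPM (1.39, SE 0.24, adjusted p = 4.15e-05), and COL4A6, the head to head neighbour of COL4A5, from 0.7, 1.07 and 0.861 CPM to 1.83, 1.85 and 2.36 CPM (1.16, SE 0.25, adjusted p = 3.58e-04).

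COL16A1 rose from 7.7, 4.46 and 3.14 CPM to 28.8, 20.4 and 21.8 CPM with afatinib (2.18, SE 0.25, adjusted p = 1.20e-07). COL20A1 rose from 0.623, 0.611 and 0.95 CPM to 3.11, 3.32 and 2.61 CPM (2.02, SE 0.39, adjusted p = 1.10e-04). These FACIT genes were called upward in MKN7 as well.

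Among fibrillar chains, COL5A2 rose from 6.15, 7.43 and 4.11 CPM to 17.5, 16.7 and 13.5 CPM (1.40, SE 0.16, adjusted p = 1.45e-07). COL24A1 went from 0.681, 0.737 and 0.221 CPM to 1.76, 2.61 and 1.93 CPM (1.90, SE 0.54, adjusted p = 4.19e-03), COL11A2 from 5.82, 5.37 and 2.92 CPM to 11.2, 10.8 and 7.14 CPM (1.01, SE 0.27, adjusted p = 2.51e-03), and COL5A3 from 0.739, 0.547 and 0.331 CPM to 1.21, 1.17 and 1.15 CPM (1.08, SE 0.34, adjusted p = 8.61e-03). None of these groups overlapped, but without replicate 3 the calls of COL24A1 (1.60), COL11A2 (0.95) and COL5A3 (0.86) were lost, as was that of COL5A3 without replicate 2 (1.11). COL3A1 was at 0, 0.0421 and 0 CPM untreated, at or under the floor, and at 0.542, 0.231 and 0.359 CPM with afatinib, so no fold is given.

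COL7A1 rose from 14, 13.8 and 6.25 CPM to 32.5, 29.1 and 20.2 CPM (1.23, SE 0.23, adjusted p = 9.15e-05). The transmembrane chain COL25A1, which binds amyloid in brain, rose from 0.233, 0.147 and 0.133 CPM to 1.57, 0.853 and 0.831 CPM (2.61, SE 0.68, adjusted p = 2.25e-03), and COL23A1 from 0.331, 0.442 and 0.265 CPM to 0.943, 0.941 and 1.13 CPM (1.5, SE 0.50, adjusted p = 0.0126). The COL23A1 call was lost without replicate 1 (1.55) or replicate 3 (1.26). COL13A1 fell from 1.36, 0.8 and 0.994 CPM to 0.524, 0.355 and 0.246 CPM (-1.51, SE 0.29, adjusted p = 9.52e-05).

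COL14A1 (means of 0.0426 and 0.212 CPM, overlapping groups) and COL8A1 (0.254 and 0.0773 CPM) were called at low levels, and neither was without replicate 2. The combination with trastuzumab gave 15 of 37 calls in NCI-N87 (40.5%; 31.6%), and against trastuzumab alone also 15 (40.5%; 28.2%). COL28A1 was at 1.49, 1.43 and 1.43 CPM with both drugs against 0.817, 0.863 and 0.309 CPM untreated (1.08, SE 0.26, adjusted p = 9.69e-04), and was under 2-fold without replicate 3 (0.77). COL11A2 in that comparison also dropped to 0.99 without replicate 3, and COL5A3 was not called without replicate 2 (1.22) or 3 (0.87). Scaling by library size alone moved the median log2FC of all genes by 0.26 for afatinib and 0.31 for the combination; it then gave 17 higher and 2 lower members for afatinib and 17 higher and 0 lower for the combination, in which COL13A1 (-0.89) was not called.

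Summed epithelial markers in NCI-N87 were 10651 to 13024 CPM with afatinib and 18699 to 21809 CPM untreated, and summed mesenchymal markers had means of 114.2 CPM and 268.2 CPM, with groups that did not overlap. These sums were mostly keratins and FN1. Over all NCI-N87 libraries KRT8, KRT18 and KRT19 had medians of 9662, 2796 and 4617 CPM, and the other epithelial markers at most 667.2 CPM. The FN1 median was 236.5 CPM, and the other mesenchymal markers had at most 8.28 CPM. Fibroblast markers summed to at most 0.664 CPM in either group. The part of the epithelial and mesenchymal markers in the collagen changes was not tested.

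**Figure D4:**
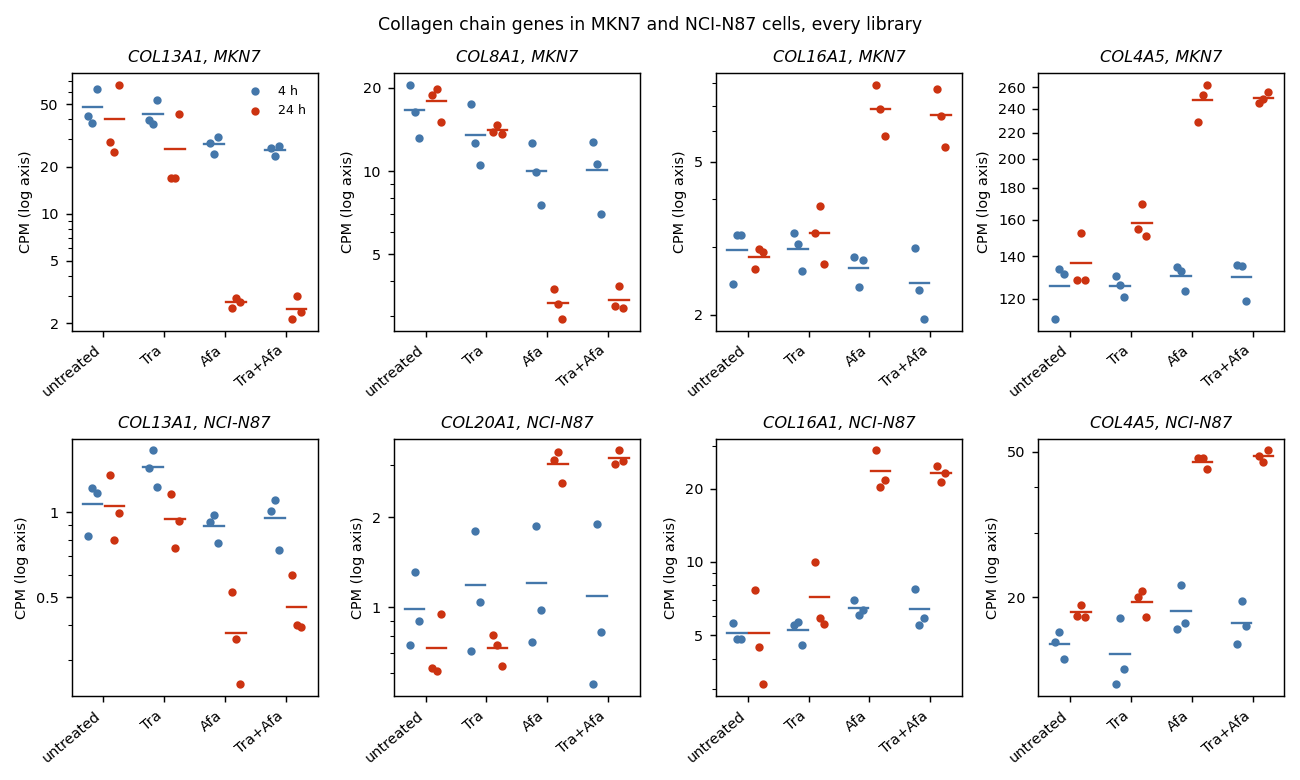
CPM on a log axis of 4 members each in MKN7 (top: COL13A1, COL8A1, COL16A1, COL4A5) and NCI-N87 (bottom: COL13A1, COL20A1, COL16A1, COL4A5) for the 4 conditions, with 1 dot per library (blue 4 h, red 24 h) and bars at the means (n = 3). At 24 h the trastuzumab dots of COL8A1 in MKN7 (13.6 to 14.7) lie just under the untreated ones (15.1 to 19.8), while the afatinib and combination dots of COL13A1 drop to 2.13 to 2.97 in MKN7 and those of COL4A5 reach 44.8 to 50.4 in NCI-N87.

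Some chains had a positive afatinib log2FC at 24 h with an adjusted p under 0.05 in each of MKN1, MKN7 and NCI-N87. Of the fibrillar class these were COL1A1 (0.75, 0.39 and 0.62 in that order), COL5A2 (0.82, 0.84 and 1.40) and COL24A1 (0.52, 1.25 and 1.90). Of the type IV network they were COL4A4 (0.73, 0.98 and 1.39) and COL4A5 (1.07, 0.85 and 1.33). The share of all genes with this pattern was not computed, so it is not read as particular to collagen.

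**Figure D5:**
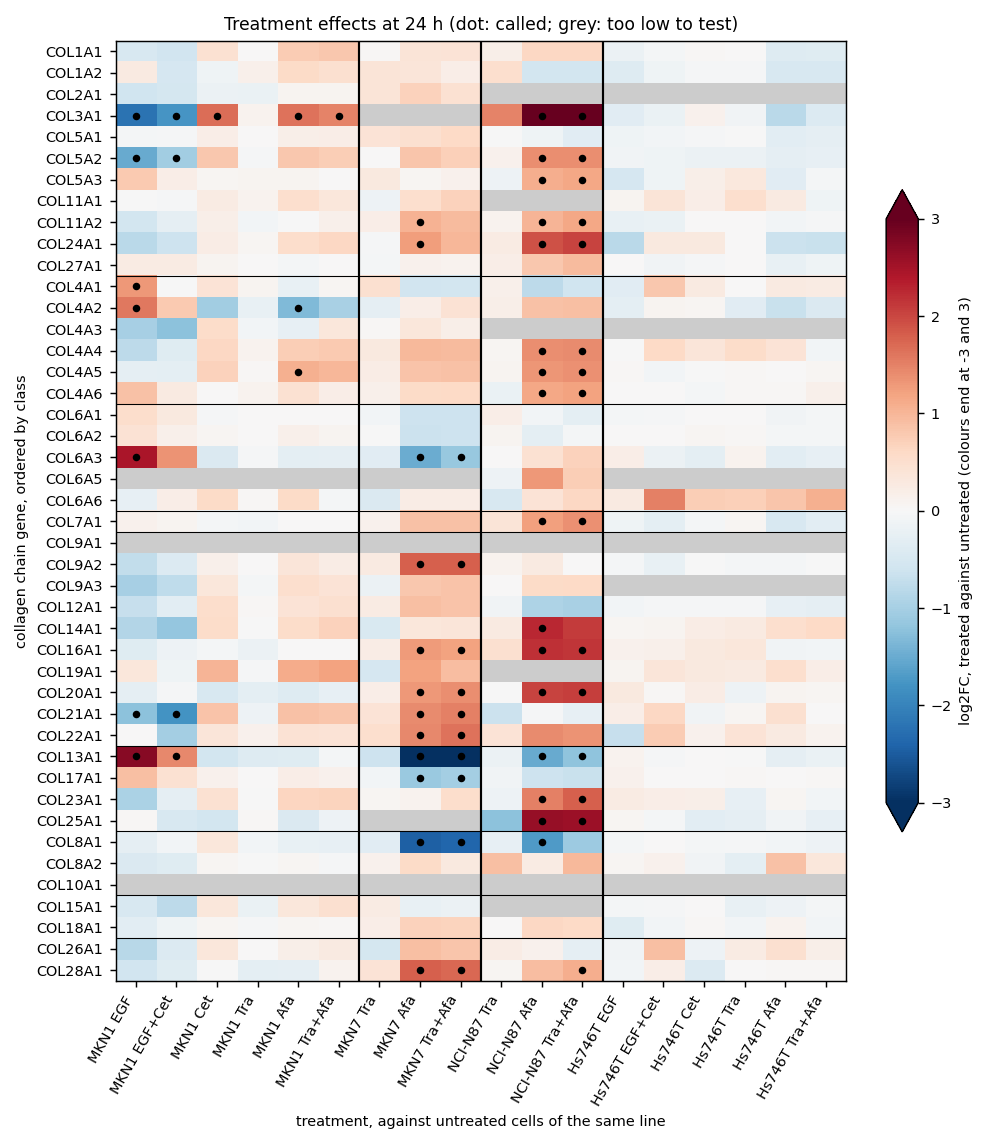
Log2FC at 24 h of each collagen chain gene (rows, by class) for each treatment against untreated cells of the same line (columns), red higher and blue lower, with a dot for a call and grey for genes too low to test. COL13A1 is red for EGF in MKN1 (2.73) and blue for afatinib in MKN7 (-3.89) and NCI-N87 (-1.51), COL16A1 is red in MKN7 and NCI-N87 (1.27 and 2.18), and Hs746T has no dot.

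The difference between lines was tested as an interaction in the fit of all libraries. COL13A1 differed most for MKN7, with afatinib effects of -3.89 in MKN7, -0.36 in MKN1, -1.51 in NCI-N87 and -0.26 in Hs746T, and the MKN7 effect differed from those of MKN1 (adjusted p = 8.22e-06), NCI-N87 (adjusted p = 6.06e-04) and Hs746T (adjusted p = 1.16e-10). COL16A1 had an effect of 2.18 in NCI-N87, 1.27 in MKN7, -0.11 in Hs746T and -0.00 in MKN1, and MKN1 differed from NCI-N87 by -2.19 (SE 0.37, adjusted p = 7.95e-07). COL12A1, higher with afatinib in MKN7 (0.91) and lower in NCI-N87 (-0.93), differed between them by 1.81 (SE 0.45, adjusted p = 1.23e-03), except without replicate 3.

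Counts of members with a called difference in afatinib effect were 7 of 42 for MKN1 against MKN7 (16.7%; 3.6% of all genes), 7 for MKN1 against NCI-N87 (16.7%; 13.4%), 4 for MKN1 against Hs746T (9.52%; 1.34%) and 4 for MKN7 against NCI-N87 (9.52%; 9.64%). They were 10 for MKN7 against Hs746T (23.8%; 7.02%) and 14 for NCI-N87 against Hs746T (33.3%; 19.4%). With the replicate block the counts for MKN1 against MKN7, MKN1 against NCI-N87 and MKN7 against NCI-N87 became 11, 12 and 10. For EGF, MKN1 differed from Hs746T in 3 members (7.14%; 3.15%), namely COL13A1 (2.59), COL6A3 (2.28) and COL5A2 (-1.42), and in 7 with the block. Without replicate 2 neither COL6A3 nor COL5A2 was called there, and COL6A3 was not without replicate 3.

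Hs746T, the line with type I collagen, gave 0 calls over 12 treatment contrasts with edgeR and 0 with DESeq2, both without a replicate block (0% of all genes were called in each). In the edgeR fit without the block, 12 of 456 tests of members had an unadjusted p under 0.05. The largest absolute log2FC of a member above 1 CPM was 0.48. COL1A1 was at 508, 486 and 524 CPM untreated at 24 h and 407, 376 and 379 CPM with afatinib, groups that did not overlap (-0.39), but the smallest adjusted p of any member and treatment without a replicate block was 0.678. With the replicate number as a block no member was past both thresholds, but COL1A1 (-0.39, adjusted p = 3.22e-04), COL1A2 (-0.48, adjusted p = 1.00e-04) and COL5A1 (-0.32, adjusted p = 0.0181) were lower with afatinib at an adjusted p under 0.05, as they were with the combination. Of all genes, the block called 0.354% for afatinib and 0.0536% for the combination at 4 h, and at most 0.0161% for a treatment at 24 h. For afatinib at 4 h, 8 of 38 members had an unadjusted p under 0.05 with the block and 1 without it. COL13A1, which afatinib lowered in MKN7, was at 57.5, 32 and 34.2 CPM untreated and at 46, 31 and 26.3 CPM with afatinib.

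Trastuzumab alone gave 0 member calls over 8 contrasts in the 4 lines with edgeR and 0 with DESeq2, both without a replicate block (0% of all genes). Of these edgeR tests of members, 5 of 310 had an unadjusted p under 0.05. With the replicate number as a block 0 members were called as well. In MKN7 at 24 h, 10 of 39 members then had an unadjusted p under 0.05, against 2 without the block. There 1 member was higher at an adjusted p under 0.05, and 0.0162% of all genes were called.

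At 4 h only 1 member was called over 18 contrasts against untreated cells, compared with 69 calls over 18 contrasts at 24 h. This was COL28A1 in MKN7 with trastuzumab and afatinib, at 1.3, 1.39 and 1.12 CPM against 0.378, 0.707 and 0.49 CPM (1.23, SE 0.24, adjusted p = 6.93e-04; 1 of 39 members, 2.56%; 3.71% of all genes). The share of all genes called at 4 h was 3.4% for afatinib in MKN7, 3.24% for afatinib and 3.01% for the combination in NCI-N87, and in MKN1 1.48% for EGF, 0.116% for EGF with cetuximab, 0.333% for cetuximab, 0.681% for afatinib and 0.727% for the combination. In MKN1, COL6A3 was at 32.7, 18.4 and 13.7 CPM untreated and 70, 42.5 and 32.6 CPM with EGF at 4 h, overlapping groups that were not called (1.17, SE 0.50, adjusted p = 0.196) but were with the replicate block (1.2, adjusted p = 4.46e-08). COL7A1 stood at 662, 649 and 585 CPM untreated and 872, 849 and 769 CPM with EGF (0.40, adjusted p = 5.73e-03).

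Untreated cells also differed between harvests. From 4 h to 24 h, 5 of 41 members were called in MKN1 (12.2%; 8.06%): COL5A3 fell from a mean of 89.1 to 37 CPM (-1.29, adjusted p = 1.76e-03), COL6A3 from 21.6 to 7.21 CPM (-1.60, adjusted p = 0.0163), COL4A2 (-1.46) and COL13A1 (-1.22) fell, and COL24A1 rose from 0.827 to 2.04 CPM (1.29, adjusted p = 1.94e-05). In MKN7, COL5A3 (-1.14, adjusted p = 0.0221) and COL6A3 (-1.23, adjusted p = 5.89e-03) were 2 of 39 called (5.13%; 1.76%), but 0 were called without replicate 2. NCI-N87 and Hs746T had 0 calls with edgeR and DESeq2 (0.0472% and 0.129% of all genes), with 2 and 4 members at an unadjusted p under 0.05. COL6A3, COL4A2 and COL13A1 were thus lower at 24 h in untreated MKN1 cells, and were called higher with EGF against the same 24 h libraries.

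Genes that make, bind and cut collagen were counted from fixed lists. Of the genes for making collagen, EGF in MKN1 lowered 1 of 33 tested (TLL1, below 1 CPM) and raised 0, where 6.24% and 2.11% of all genes were called lower and higher. Afatinib in MKN7 raised 2 and lowered 1 of 32 tested (10.3% and 3.25% of all genes), and afatinib in NCI-N87 raised 2 and lowered 5 of 30 tested (18.1% and 11.5%). PCOLCE2, an enhancer of procollagen cleavage, went from a mean of 13.8 to 3.61 CPM in MKN7 (-1.94) and fell in NCI-N87 (-2.78), while BMP1, the procollagen C-proteinase, went from 67.6 to 148.9 CPM in MKN7 (1.13). In NCI-N87 the lysyl hydroxylase PLOD3 (-1.29) and the lysyl oxidase LOXL3 (-1.16) fell, and PCOLCE (1.73) and LOXL4 (1.2) rose.

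The collagen receptor subunit ITGA2 was called at 24 h for EGF in MKN1 and for afatinib in MKN7 and NCI-N87, but not for afatinib in MKN1. It rose with EGF in MKN1 from a mean of 29.8 to 150 CPM (2.35, adjusted p = 5.96e-06). Untreated MKN1 cells had been at 85.5 CPM at 4 h (-1.55 from 4 h to 24 h). At 4 h ITGA2 was called higher with EGF in MKN1 (1.90) and lower with afatinib in MKN7 (-1.20). For afatinib in MKN1 at 4 h, 0 of 9 receptors tested were called (0.681% of all genes). With the replicate block 1 was called lower (1.08% of all genes called). The paper lists ITGA2 among genes regulated in MKN1 after 4 h of afatinib. With afatinib at 24 h ITGA2 fell from 253 ± 140.8 to 35.8 ± 5 CPM in MKN7 (SD, n = 3, log2FC -2.83, adjusted p = 2.25e-07). In NCI-N87 it fell from 183 to 74.7 CPM (-1.33, adjusted p = 1.72e-05), but it was not called there for the combination against trastuzumab at 24 h. Of 9 receptors tested among 11 listed, NCI-N87 with afatinib had 2 higher and 3 lower (18.1% and 11.5% of all genes), among the latter ITGB1, the partner of ITGA2, at 560 and 277 CPM (-1.04).

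Of 8 genes for collagen breakdown, 6 were tested in MKN1 and MKN7 and 5 in NCI-N87. EGF in MKN1 called 1 higher and 2 lower (8.36% of all genes in either direction). Afatinib called 1 higher and 2 lower in MKN7 (13.5%) and 1 higher and 1 lower in NCI-N87 (29.6%). With EGF in MKN1, MMP9 rose from a mean of 0.413 to 1.33 CPM (1.70) and MMP14 fell (-1.05). MMP13 fell from 0.425 to 0.0743 CPM, within the range of the floor, so no fold is given. In MKN7 afatinib raised MMP14 from 113.1 to 312.3 CPM (1.46) and lowered MMP2 (-1.19). It lowered MMP9 from 75.9 ± 68.5 to 9.61 ± 0.886 CPM (SD, n = 3, log2FC -2.99), so the untreated replicates of MMP9 were uneven. CTSK, which cuts fibrillar collagen in bone, rose in NCI-N87 from 4.79 to 16.1 CPM (1.71). Other genes cover 53.2% of the exonic bases of LOXL3, 33.2% of PCOLCE and 31.8% of MMP9. MMP1 and the platelet receptor GP6 lie wholly inside other genes and were at 0, so they cannot be read here.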

How the data were processed

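Poly(A) RNA from 44 groups of 3 replicates of 4 gastric cancer cell lines was sequenced from strand-marking libraries (NEBNext Ultra II Directional). The deposited files hold raw whole-number counts per gene, 1 file per library, made by the authors with Trim Galore and STAR on hg38 per the submitters' processing notes, and the counter, its strand setting and the annotation release are not given in the sources used here. Symbols, classes of gene and exon lengths came from GENCODE 29, in which 8404 of 65217 identifiers, with 0.0422% of counts, were not found, and 98.3% of counts fell on protein-coding genes. The depth of 25832557 to 69434151 counts sets a floor of 3 counts at 0.0432 to 0.116 CPM, which covers counting error only.

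CPM were computed from library totals multiplied by the TMM factors of the fit of all libraries. The floor uses library totals alone. Genes were tested per line with edgeR 4.0.16 (R 4.3.3; filterByExpr with a minimum count of 10 and total of 15, TMM, quasi-likelihood F test) over all groups of the line, and untreated lines and interactions in 1 fit of all libraries. A gene was called at a Benjamini-Hochberg adjusted p under 0.05 and a log2FC beyond 1 in either direction, with p adjusted over all genes tested. The fits were tested on simulated data. Alternatives were a fit with a block for the replicate number, DESeq2 1.42.0, scaling by library size alone, the compared groups alone, a stricter filter (10 counts or more per library) or none, and each replicate left out in turn. The replicates are biological in the series' design text. Pairing by number was checked by correlating deviations from group means: every correlation was above 0.1 in 49 of 52 contrasts, except MKN1 cetuximab against untreated, and trastuzumab with afatinib against untreated and against trastuzumab, all at 24 h. Library names fall into 2 numbering series of 65 and 67 libraries, and each line, time and replicate number lies in 1 of them, so the block also holds the series. No pair of replicates was alike within sampling noise (lowest ratio of observed to sampling variation 6.41).

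Members named in the text were those called against untreated cells with a mean of at least 1 CPM in a group (at most 25), the 3 highest per kilobase in each line and up to 3 genes per pathway list and direction. Other members are named for their place in a count, after their values were seen. Members and lists were chosen with earlier results of these data known. Lengths outside other genes were chosen after the data were seen. Python 3.11.15 and matplotlib 3.10.9 drew the figures.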

Additional observations from a re-analysis of the deposited data

Results flagged for a closer look

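Some collagen chain genes differed in treatment effect between cell lines, by the interaction term of the edgeR fit of all libraries. For afatinib at 24 h, the number of members with a called difference, of 42, was 7 for MKN1 minus MKN7 (16.7%; 3.6% of all genes), 7 for MKN1 minus NCI-N87 (16.7%; 13.4%) and 4 for MKN1 minus Hs746T (9.52%; 1.34%), the last 5 without replicate 1, 2 without replicate 2 and 0 without replicate 3. It was 4 for MKN7 minus NCI-N87 (9.52%; 9.64%), a share like that of all genes, 10 for MKN7 minus Hs746T (23.8%; 7.02%) and 14 for NCI-N87 minus Hs746T (33.3%; 19.4%). For EGF it was 3 for MKN1 minus Hs746T (7.14%; 3.15%).

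The transmembrane chain COL13A1 differed in afatinib effect by 3.54 for MKN1 minus MKN7, -2.40 for MKN7 minus NCI-N87 and -3.62 for MKN7 minus Hs746T on the log2 scale. Its EGF effect differed by 2.59 between MKN1 and Hs746T (SE 0.48, adjusted p = 7.55e-05). COL20A1 differed in afatinib effect by -2.41 for MKN1 minus NCI-N87 (SE 0.45, adjusted p = 9.07e-06), and COL3A1 by 2.42 for MKN1 minus Hs746T (SE 0.68, adjusted p = 0.0199). COL25A1 differed by 2.72 for NCI-N87 minus Hs746T (SE 0.99, adjusted p = 0.0237). Hs746T was grown in another medium than the other lines, and its line and medium cannot be told apart.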

How the results depend on the processing

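The 54 values recomputed were log2FC of members called against untreated cells with a mean of at least 1 CPM in a group. Changes under 2-fold and pathway genes were not among them. All 477 recomputed values kept their direction, and 452 stayed past the threshold. The 54 were picked as called in these same libraries, so a kept direction is not independent support. Of 231 recomputed counts over 30 results 186 stayed within 1.5 times. With library size alone the member calls became 11 for EGF in MKN1 (4 higher and 7 lower), 3 for trastuzumab with afatinib in MKN1, 1 for EGF with cetuximab against EGF and 2 at 4 h. DESeq2 gave 2 for cetuximab in MKN1. With only the compared groups there were 2 for trastuzumab with afatinib in MKN1 and 1 for EGF with cetuximab against EGF, and with no filter 2 for that MKN1 combination and 2 at 4 h. With at least 10 counts in every library, which leaves fewer genes tested, there were 2 for the MKN1 combination, 6 for the MKN7 combination, 1 for EGF with cetuximab against EGF, and 3 and 1 for 24 h against 4 h in MKN1 and MKN7.

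With the replicate number as a block the counts became 2 for cetuximab and 2 for the combination in MKN1, 3 at 4 h, and 11, 12 and 10 for the afatinib differences MKN1 minus MKN7, MKN1 minus NCI-N87 and MKN7 minus NCI-N87, and 7 for EGF. The block ended 0 of the named calls.

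Leaving out 1 replicate at a time gave, in MKN1, 5 to 9 for EGF, 1 to 3 for EGF with cetuximab, 0 to 1 for cetuximab, 1 to 4 for afatinib, 0 to 2 for the combination and 0 to 1 for EGF with cetuximab against EGF. It gave 2 to 3 at 4 h and 0 to 3 for 24 h against 4 h in MKN7. For the afatinib differences it gave 3 to 6 (MKN1 minus MKN7), 3 to 7 (MKN1 minus NCI-N87), 0 to 5 (MKN1 minus Hs746T), 3 to 8 (MKN7 minus Hs746T) and 6 to 12 (NCI-N87 minus Hs746T), and 1 to 3 for EGF. The cause of these shifts was not tested. Depth limits members near the floor, and counting within overlapping genes limits COL10A1, COL4A3 and COL18A1.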
